A study of Mus musculus with 39 samples.

Results

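The genes of oxidative phosphorylation were followed in *Stat3* null and wild-type (WT) mouse epiblasts and in epiblast stem cells (EpiSCs). They were taken from the deposited count tables by symbol alone: *Nduf* a, b, c, s and v, *Cox4* to *Cox8*, *Uqcr*, *Atp5*, *Sdha* to *Sdhd*, and the *mt-Nd*, *mt-Co*, *mt-Atp* and *mt-Cytb* genes, with pseudogenes marked "-ps" left out. The rule found 105 of the 47643 genes listed, and expression played no part in it. Of these, 92 are nuclear and 13 lie on the mitochondrial chromosome. The nuclear members belong to complex I (38 genes), complex II (4), complex III (8), complex IV (18) and complex V (17), and 7 more, *Ndufaf1* to *Ndufaf7*, are complex I assembly factors that the symbol pattern also takes. The mitochondrial members belong to complex I (7), complex III (1), complex IV (3) and complex V (2). *Atp5s*, *Atp5sl* and *Cox7a2l* match the pattern by name but are not counted among the classical subunits, and *Ndufa4* and its relative *Ndufa4l2* are placed here by name in complex I although the NDUFA4 protein is known as a subunit of complex IV.

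Complexes I to IV pass electrons from NADH and succinate to oxygen, and complexes I, III and IV pump protons across the inner mitochondrial membrane as they do so. Complex V, the ATP synthase, lets the protons flow back and makes ATP. All complexes but complex II are built from subunits of both genomes: mitochondrial transcripts are cut from long polycistronic RNAs, while the nuclear subunits are transcribed from genes scattered over many chromosomes and imported as proteins. The epiblast of the implanting embryo divides rapidly and relies strongly on glycolysis, and STAT3 has also been found in mitochondria. The design allows these transcripts to be compared with and without *Stat3*.

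All embryos came from matings of *Stat3* heterozygous mice on the outbred CD1 background, and null embryos carry on both chromosomes an allele in which part of the gene, including exons for the SH2 domain, is replaced by a neomycin resistance gene. Each epiblast library came from 1 embryo, genotyped by PCR on its extraembryonic tissue: 2 WT and 4 null at embryonic day (E) 5.5, 9 WT and 8 null at E6.5, before and at the onset of gastrulation, and 9 WT and 3 null at E7.5, during gastrulation. The paper reports that null embryos lagged by about a day, and that E7.5 null epiblasts grouped closer to E6.5 than to E7.5 WT epiblasts. A stage here is an embryonic day, so loss of *Stat3* and the delay cannot be told apart within it. The 4 EpiSC libraries came from WT lines 8 and 13 and null lines 2 and 6, which were derived from E6.5 or E7.5 epiblasts and grown on fibronectin with FGF2, Activin A and the tankyrase inhibitor XAV. Each line descends from 1 embryo and gave 1 library. Epiblast RNA went through a low-input total RNA kit and EpiSC RNA through ribosomal RNA depletion and a standard kit, so the kit and the cell type cannot be told apart, and no test was made between the tables.

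Total counts lay between 22941210 and 79013960 in epiblast libraries and between 63445877 and 127583699 in EpiSC libraries. Within E6.5, the first 3 libraries of each genotype held over 40000000 counts and the others fewer. E6.5 null epiblasts 2 and 3 had counts on 15531 and 15171 genes, fewer than any other epiblast (17961 to 22310). Depth also ran with genotype at E7.5, where null libraries held 37143484 to 41655234 counts. WT epiblast 3 of that stage held 39477197, and the other E7.5 WT libraries 25793920 to 36002498. The part of depth in the E7.5 values was not tested. *Stat3* was at 1.34 ± 0.14 CPM (counts scaled to library size by TMM; SD, n = 3) in E7.5 null against 13.6 ± 5.8 (SD, n = 9) in E7.5 WT epiblasts with no overlap, and it lay lower in null than in WT at E5.5 and in EpiSCs too, while at E6.5 the ranges overlapped. E5.5 null epiblast 1 had *Pou5f1* at 0.673 CPM, where the other E5.5 libraries had 100.3 or more, and extraembryonic ectoderm markers at 1424 CPM against at most 525 in those, so its label goes against its markers. Visceral endoderm markers, summed as CPM of the raw totals, ran from 5097 to 10980 CPM in the other E5.5 epiblasts, from 46.9 to 6263 at E6.5, from 370.8 to 4293 in E7.5 WT and from 37.8 to 244 in E7.5 null epiblasts. Results are given with and without the libraries that stand apart where this changes them. In the fits, the libraries that stand apart are E5.5 null epiblast 1, E6.5 null epiblast 1, E6.5 WT epiblast 3 and E7.5 WT epiblast 3. They were set by name, with no cutoff on a measured value. E6.5 null epiblasts 2 and 3, with few genes detected, are not among them.

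Some sequences come first, because they show where reads of a member can be counted on another gene. For 7 of the 13 mitochondrial genes, a near-identical copy is annotated on chromosome 1. Laid side by side without gaps over 492 bases, *mt-Co1* and its copy *Gm29216* differ at 6 bases. All lie at the start of the compared stretch: T1056A, C1057T, A1059G, A1060G, C1062A and A1066T, counted from 1 at the 5′ end of *mt-Co1*. The blastn alignment took in only 483 bases, at 99.793% identity, so most of the 6 may lie outside the copied sequence. *mt-Nd3* and its copy *Gm28438* differ over 345 bases only by T3C. The windows around these bases are shown 5′ to 3′ from GRCm38, with the differing bases in capitals. That of *mt-Co1* is chrM:6381-6417 on the plus strand, that of *Gm29216* chr1:24616161-24616197 on the minus strand, that of *mt-Nd3* chrM:9459-9485 on the plus strand and that of *Gm28438* chr1:24613093-24613119 on the minus strand.
mt-Co1: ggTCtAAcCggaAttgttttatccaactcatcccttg
Gm29216: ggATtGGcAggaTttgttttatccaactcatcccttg
mt-Nd3: atTaacctgtacactgttatcttcatt
Gm28438: atCaacctgtacactgttatcttcatt
Within the compared stretches, a read that covers none of the capital bases matches both places equally well. In the epiblast libraries the copies took counts in a narrow ratio to each gene: the median over 35 libraries was 98.9% of the *mt-Co2* count for *Gm28661*, 101.4% of the *mt-Co3* count for *Gm28437*, 103% of the *mt-Atp6* count for *Gm10925* and 102.1% of the *mt-Nd4l* count for *Gm10222*. It was 10.4% for *mt-Co1*, 30.0% for *mt-Nd4* and 185.9% for *mt-Nd3* (154.8% to 275.6%), which is therefore the least certain of the 13. The other 6 genes, among them *mt-Nd1* and *mt-Cytb*, have no such copy on chromosome 1, but *mt-Nd2* and *mt-Nd5* have more distant ones on chromosomes 2 and 13, of 96.7% and 95.2% identity.

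Mitochondrial reading frames also overlap each other, and a read in an overlap can be counted on either gene. *mt-Atp8* and *mt-Atp6* share 43 bases and *mt-Nd4l* and *mt-Nd4* share 7, shown here in capitals within chrM:7907-7989 and chrM:10147-10193 of GRCm38, plus strand.
mt-Atp8/mt-Atp6: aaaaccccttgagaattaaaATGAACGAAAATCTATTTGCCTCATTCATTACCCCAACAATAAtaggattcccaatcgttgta
mt-Nd4l/mt-Nd4: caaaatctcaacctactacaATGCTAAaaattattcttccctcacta

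Mitochondrially encoded transcripts were far more abundant than nuclear ones (the plot of levels by complex and genome). Levels between genes are given as CPM per kilobase of annotated exons, averaged over the 20 WT epiblasts. Counts on the chromosome 1 copies were not added to the genes. The copy held a median of 103% of the *mt-Atp6* count and 10.4% of the *mt-Co1* count over 35 epiblasts. The order of the mitochondrial genes is therefore that of the counts as assigned, and the order with copies added was not computed. *mt-Co1*, the catalytic subunit of complex IV, stood highest at 1674 CPM per kilobase, followed by *mt-Cytb*, the cytochrome b of complex III, at 1447 and by *mt-Nd1*, a membrane subunit of complex I, at 1334. *mt-Atp6* lay at 1124, *mt-Nd5* at 1112, *mt-Nd6* at 823, *mt-Atp8* at 767, *mt-Nd4* at 658, *mt-Co2* at 618, *mt-Nd2* at 616, *mt-Nd4l* at 567 and *mt-Co3* at 375. *mt-Nd3* was the lowest at 99.6, with the copy on chromosome 1 taking more counts than the gene itself. Every mitochondrial gene but *mt-Nd3* thus lay above every nuclear member, the highest of which was *Atp5a1*, encoding the alpha subunit of the ATP synthase, at 224.4.

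Among nuclear genes, the median level per kilobase was 19.0 for complex I, 31.9 for complex II, 40.8 for complex III, 24.3 for complex IV, 33.0 for complex V and 4.70 for the assembly factors. In complex I, *Ndufa2*, an accessory subunit, stood at 52.6 and *Ndufa4l2* was last at 2.33. In complex II, *Sdhd* and *Sdha*, a membrane anchor and the flavoprotein, stood at 43.1 and 41.7 and *Sdhc*, the other anchor, at 8.57. In complex III, *Uqcrb* and the Rieske iron-sulfur protein gene *Uqcrfs1* stood at 71.3 and 49.7, and *Uqcrc2*, a core protein, at 20.5. In complex IV, *Cox8a* and *Cox6a1* stood at 99.2 and 66.0 and *Cox8c* at 0.0254. In complex V, *Atp5b*, the catalytic beta subunit, followed *Atp5a1* at 153.2, and *Atp5s* was last at 0.532. The assembly factors ran from *Ndufaf4* at 9.69 and *Ndufaf6* at 7.79 down to *Ndufaf3* at 3.50. Dividing by the longest transcript in place of the exon union kept the lowest gene of each complex, but placed *Cox4i1* above *Cox8a*, *Atp5b* above *Atp5a1*, *Sdha* above *Sdhd* and *Uqcrc1* behind *Uqcrb*.

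**Figure D1:**
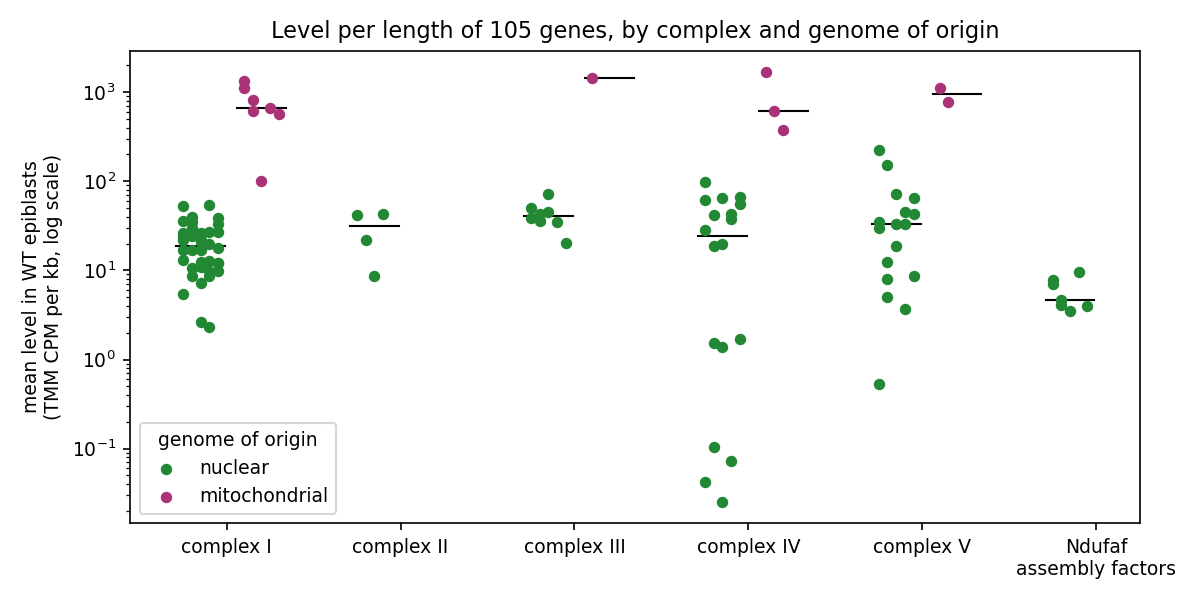
Level of each member in WT epiblasts, in CPM per kilobase on a log axis, by complex and genome; each point is a gene (mean of 20 epiblasts) and each line the median of its group. The 13 mitochondrial genes lie between 99.6 and 1674, and the nuclear medians between 4.70 for the assembly factors and 40.8 for complex III.

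The share of all counts that fell on the 13 mitochondrial genes had a lower mean at each later stage in both genotypes, while the share on the 92 nuclear members moved little. In bulk samples, fewer cells of a type and less RNA per cell cannot be told apart, and a share can also move with the rest of the library. At E5.5 the mitochondrial genes took 1.54% and 1.41% of counts in WT epiblasts, and 1.69%, 1.40%, 1.36% and 1.36% in null epiblasts. At E6.5 they took 0.948% at the lowest, 1.06% in the median and 1.89% at the highest of the 9 WT epiblasts, and 1.07%, 1.24% and 1.56% in the 8 null epiblasts. At E7.5 the WT epiblasts lay between 0.935% and 1.05%, with a median of 0.997%, and the 3 null epiblasts at 0.927%, 0.941% and 0.983%. All E7.5 libraries of both genotypes thus lay below all E5.5 libraries, and null and WT ranges overlapped at every stage, at E5.5 only through null epiblast 1, whose markers go against its label: without it the 3 null values, 1.40% at most, lay below both WT values. As means, WT went from 1.48% ± 0.09 (SD, n = 2) through 1.20% ± 0.34 (SD, n = 9) to 0.990% ± 0.037 (SD, n = 9), and null from 1.45% ± 0.16 (SD, n = 4) through 1.27% ± 0.18 (SD, n = 8) to 0.950% ± 0.029 (SD, n = 3). The widest 95% Wilson interval of such a share was 0.009 percentage points, which covers counting error only.

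The highest shares at E6.5 were in libraries over 40000000 counts. The 3 WT epiblasts over 40000000 counts took 1.70%, 1.004% and 1.89%, and the other 6 took 1.04% ± 0.06 (SD, n = 6). In null epiblasts the 3 deep libraries had 1.41% ± 0.21 (SD, n = 3) and the other 5 had 1.19% ± 0.09 (SD, n = 5). Visceral endoderm markers summed to 1510 and 5239 CPM in WT epiblasts 1 and 3, which had the highest mitochondrial shares, and to 307.6 in WT epiblast 2, which did not. They were at 6263, 447.8 and 105.7 in null epiblasts 3, 2 and 1, with shares of 1.56%, 1.51% and 1.17%. At E7.5 WT epiblasts reached 4293 CPM of these markers with a share that never passed 1.05%. The part of depth and of visceral endoderm in the E6.5 values was not tested.

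**Figure D2:**
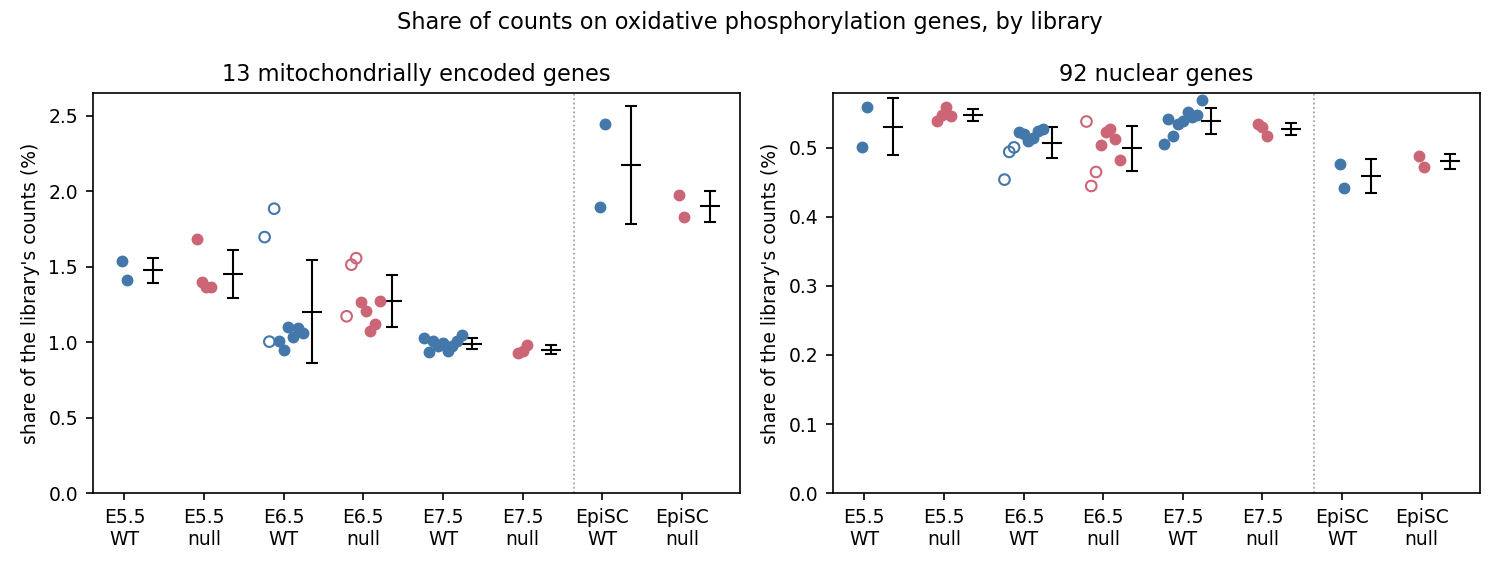
Share of a library's counts (percent) on the 13 mitochondrial genes and on the 92 nuclear members, by stage and genotype; each point is a library, open circles are E6.5 libraries over 40000000 counts, and bars give mean ± SD. The mitochondrial share has a mean of 1.48% in WT at E5.5 and 0.990% at E7.5, and the nuclear share stays between 0.499% and 0.547% in the epiblast group means.

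The nuclear members took 0.530% ± 0.041 (SD, n = 2) of counts in E5.5 WT, 0.507% ± 0.023 (SD, n = 9) in E6.5 WT and 0.538% ± 0.019 (SD, n = 9) in E7.5 WT epiblasts. In null epiblasts the values were 0.547% ± 0.009 (SD, n = 4), 0.499% ± 0.033 (SD, n = 8) and 0.527% ± 0.009 (SD, n = 3). The ratio of mitochondrial to nuclear counts was accordingly 2.80 ± 0.38 (SD, n = 2) in WT epiblasts of E5.5 and 1.84 ± 0.10 (SD, n = 9) in those of E7.5, and 2.66 ± 0.32 (SD, n = 4) and 1.80 ± 0.09 (SD, n = 3) in null epiblasts of these stages. By complex, the mitochondrial part of complex IV took 0.474%, 0.353% and 0.274% of counts in WT epiblasts of the 3 stages, and that of complex I 0.682%, 0.588% and 0.476%. *mt-Cytb*, the mitochondrial part of complex III, took 0.214%, 0.165% and 0.156%, and complex V took 0.105%, 0.0978% and 0.0836%. The nuclear part of complex IV stood at 0.0788%, 0.0662% and 0.0676%, that of complex I at 0.135%, 0.135% and 0.145%, and complex II, which has no mitochondrial gene, at 0.0293%, 0.0291% and 0.0318%.

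The step from E5.5 to E6.5 in WT epiblasts was tested with edgeR's quasi-likelihood test, adjusted over all genes (Benjamini-Hochberg). *Cox6a2*, *Cox7b2*, *Cox8b* and *Cox8c* had too few counts to be tested in any comparison of 2 epiblast groups, and *Cox4i2* too few in those with E5.5 null epiblasts. Of 101 members tested, 1 passed an adjusted p of 0.05, where 9.24% of all genes did (5.15% in the higher direction): *Ndufaf4*, a complex I assembly factor, rose. It lay at 24.2 and 17.4 CPM in the E5.5 WT epiblasts and at 30.5, 34.0 and 38.3 (lowest, median, highest of 9) at E6.5. The groups did not overlap, and the log2 fold change was 0.73 (SE 0.18, adjusted p = 0.0196). All 13 mitochondrial genes had negative log2 fold changes (median -0.26), against a median of -0.03 for the nuclear members and 0.10 for all genes. *mt-Co3*, a core subunit of complex IV, had the largest difference among them at -0.55 (SE 0.17, adjusted p = 0.0595), from 467.4 and 405.1 CPM at E5.5 to 223.3, 284.9 and 410.9 at E6.5. Visceral endoderm markers summed to 5097 and 6710 CPM in these E5.5 epiblasts and to 46.9, 163.0 and 5239 (lowest, median, highest) at E6.5, and their part in the members' values was not tested. The count rested on single libraries, with only 2 WT epiblasts at E5.5. It was 0 without either of these, 15 without E6.5 WT epiblast 3 (4 higher and 11 lower, where 7.99% and 9.18% of all genes passed), 3 without E6.5 WT epiblast 1 and 2 without E6.5 WT epiblast 2. With all 3 deep WT libraries of E6.5 left out, a choice made after seeing the data, it was 29 (7 higher and 22 lower, where 12.2% and 13.4% of all genes passed), and all 13 mitochondrial genes fell (median -0.51), among them *mt-Co2* (log2 fold change -0.69, adjusted p = 0.000154) and *mt-Co1* (-0.60, adjusted p = 0.000329).

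Between E6.5 and E7.5 in WT epiblasts, 9 of 101 members passed, 3 higher and 6 lower, where 24.9% of all genes passed (12.7% higher and 12.3% lower). Of the 6 that fell, 5 were mitochondrial. *mt-Co1* was counted at 2216, 2580 and 4472 CPM (lowest, median, highest of 9) at E6.5 and at 1898, 2009 and 2377 at E7.5. The E7.5 epiblasts lay in a narrow band at the lower end of the E6.5 range, and the log2 fold change was -0.50 (SE 0.11, adjusted p = 0.00249). *mt-Nd1* went from 1109, 1242 and 2207 CPM to 960.6, 1025 and 1184, a log2 fold change of -0.46 (SE 0.12, adjusted p = 0.0062). *mt-Atp8* and *mt-Atp6*, which encode subunits in the membrane part of complex V, had log2 fold changes of -0.33 (SE 0.08, adjusted p = 0.00535) and -0.31 (SE 0.10, adjusted p = 0.0204), and *mt-Nd2* one of -0.39 (SE 0.13, adjusted p = 0.0374). Their ranges at both stages overlapped, as those of *mt-Co1* and *mt-Nd1* did. The other 8 mitochondrial genes had log2 fold changes between -0.41 for *mt-Nd6* and -0.17 for *mt-Cytb*, so all 13 were negative, with a median of -0.33 against 0.06 for the nuclear members and 0.01 for all genes.

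The only nuclear member to fall at this step was *Cox7c*, a small subunit of complex IV. It lay at 57.1, 67.8 and 85.3 CPM at E6.5 and at 46.6, 52.2 and 75.1 at E7.5, where the highest value, in WT epiblast 3, stood apart from the next, 61.0. Its log2 fold change was -0.41 (SE 0.10, adjusted p = 0.00368). *Ndufaf4* rose again, from 30.5, 34.0 and 38.3 CPM to 32.8, 46.5 and 56.6 (log2 fold change 0.40, SE 0.10, adjusted p = 0.00652). *Ndufaf6*, another assembly factor, went from 3.98, 7.93 and 8.73 CPM to 7.14, 10.9 and 22.1, with the highest values in WT epiblasts 7 (22.1) and 1 (20.6). Its log2 fold change was 0.72 (SE 0.23, adjusted p = 0.0221). *Uqcrb*, known as the ubiquinone-binding protein of complex III, went from 48.2, 57.0 and 63.3 CPM to 57.0, 64.6 and 77.8 (log2 fold change 0.22, SE 0.07, adjusted p = 0.0355), and its 3 annotated copies took a median of 18.0% of the summed counts. The count of members was 14 without E7.5 WT epiblast 3 (6 higher and 8 lower, where 14.5% and 14.4% of all genes passed), 16 without the libraries that stand apart (8 in each direction, where 17.8% and 15.9% did) and 14 without the deep E6.5 libraries (4 higher and 10 lower, where 16.7% and 13.1% did). In the last of these the median of the mitochondrial genes was -0.11, against -0.33 with them, and *mt-Co1* and *mt-Nd1* still passed with log2 fold changes of -0.32 and -0.27. Visceral endoderm markers *Rbp4* and *Ttr* rose at this step (log2 fold changes 2.74 and 2.47), and their part in the members' values was not tested.

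**Figure D3:**
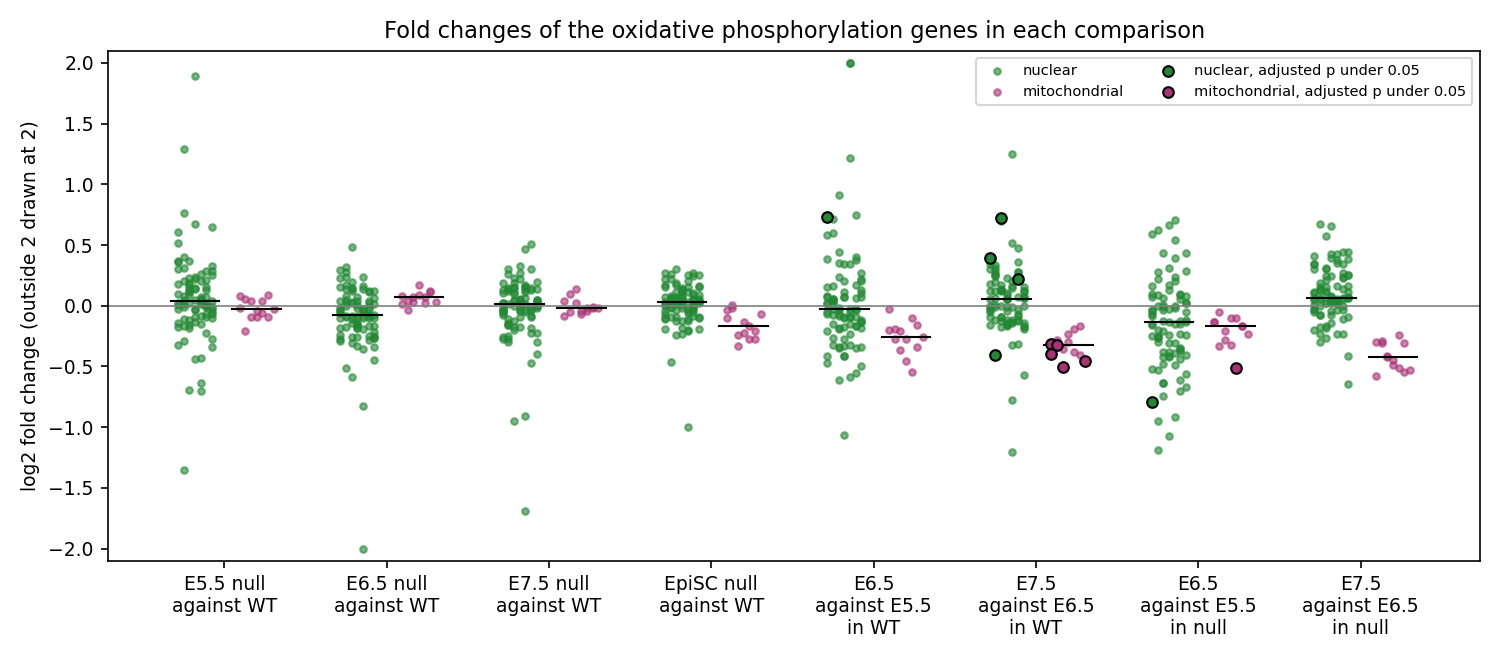
Log2 fold change of every tested member, mitochondrial and nuclear, in each of 8 comparisons between genotypes or stages; points outside ±2 are drawn at that limit, black outlines mark an adjusted p under 0.05 (edgeR) and lines the median of each set. The mitochondrial medians lie below 0 in all steps between stages, at -0.33 in WT and -0.43 in null epiblasts from E6.5 to E7.5, and between -0.03 and 0.07 between genotypes at the 3 epiblast stages.

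The promoters of both nuclear members that passed with the smallest p at this step, which moved in opposite directions, are shown. Whether promoter letters go with the direction was not tested. RefSeq promoter sequences (GRCm38.p6, 250 bases before to 50 after the start) were found for 73 of the 92 nuclear members, 78 promoters in all. Both strands were searched for CGCATGCG (the core of the NRF1 motif), CCGGAAG (ETS factors such as GABPA) and AAGATGGCG (YY1), and no ETS match overlapped a YY1 match. At least 1 was found in 37.2% of the members' promoters and in 11.5% of the 32851 promoters in the table. NRF1 letters were in 14.1% against 1.87%, ETS in 21.8% against 8.86% and YY1 in 8.97% against 1.4%. *Ndufa8*, which fell from E5.5 to E6.5 in null epiblasts, also has the NRF1 letters, and *Ndufaf6* and *Uqcrb* had no promoter sequence. *Ndufaf4* has the NRF1 letters from 112 bases before its start, in capitals below within chr4:24897833-24898082 (plus strand), and *Cox7c* has none of the 3 in chr13:86046796-86047045 (minus strand).
Ndufaf4: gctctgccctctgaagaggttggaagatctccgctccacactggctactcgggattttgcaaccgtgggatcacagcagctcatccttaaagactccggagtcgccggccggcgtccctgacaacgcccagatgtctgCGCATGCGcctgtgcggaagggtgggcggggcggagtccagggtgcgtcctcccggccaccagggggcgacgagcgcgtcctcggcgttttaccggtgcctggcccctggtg
Cox7c: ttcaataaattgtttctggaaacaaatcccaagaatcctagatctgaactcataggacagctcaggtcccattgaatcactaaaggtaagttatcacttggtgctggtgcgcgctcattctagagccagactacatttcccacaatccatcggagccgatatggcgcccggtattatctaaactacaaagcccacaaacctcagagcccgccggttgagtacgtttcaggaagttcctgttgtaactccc

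In null epiblasts, too, the mitochondrial genes had lower levels at each later stage by their median. From E5.5 to E6.5, 2 of 100 members passed, both lower, where 3.77% of all genes passed (2.46% higher and 1.31% lower). *mt-Co3* was at 498.1, 409.3, 388.2 and 390.0 CPM in the 4 E5.5 null epiblasts and at 263.5, 306.4 and 322.6 (lowest, median, highest of 8) at E6.5. The stages did not overlap, and the log2 fold change was -0.51 (SE 0.09, adjusted p = 0.00842). *Ndufa8*, an accessory subunit of complex I, was at 34.3, 34.1, 35.4 and 35.8 CPM at E5.5 and at 12.2, 20.4 and 27.7 at E6.5, again without overlap (log2 fold change -0.80, SE 0.21, adjusted p = 0.0491). The median was -0.17 for the mitochondrial genes, all 13 of them negative, and -0.14 for the nuclear members. Visceral endoderm markers summed to 26.3, 9266, 10980 and 6635 CPM in the E5.5 null epiblasts and to between 105.7 and 6263 at E6.5, and their part in these values was not tested. Without E6.5 null epiblast 1, 8 members passed (7 lower and 1 higher, *Ndufs4*, where 3.58% and 3.46% of all genes passed). Leaving out E5.5 null epiblast 2, 3 or 4, or E6.5 null epiblast 4, 6, 7 or 8, left *mt-Co3* alone. Without the deep E6.5 libraries 18 passed (2 higher and 16 lower, 8 of them mitochondrial, where 5.99% and 7.8% of all genes passed), and without the libraries that stand apart *mt-Co3*, *Cox6c* and *Uqcrq* fell, where 3.3% of all genes did.

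From E6.5 to E7.5 in null epiblasts no member passed among 101 tested, where 0.149% of all genes did. At an unadjusted p under 0.05 there were 16, 4 higher and 12 lower (8.13% of all genes, 3.42% higher and 4.71% lower), and all 12 lower ones were mitochondrial. DESeq2 called 3, lower in each case (*mt-Co1*, *mt-Co2* and *mt-Nd1*, where 1.39% of all genes were lower), and voom with sample quality weights 10 (2 higher and 8 lower, where 3.37% and 1.46% were). *mt-Co1* was at 2541, 2927 and 3405 CPM at E6.5 and at 2310, 2141 and 2191 in the 3 E7.5 null epiblasts. No E7.5 value reached the E6.5 range (log2 fold change -0.41, SE 0.08, adjusted p = 0.103). *mt-Co2*, which carries the copper site that takes electrons from cytochrome c, was at 395.3, 456.0 and 550.1 CPM and then at 343.2, 329.7 and 363.1 (log2 fold change -0.44, SE 0.11, adjusted p = 0.15). The stages did not overlap for 9 of the 13 mitochondrial genes, where 1.95% of all genes were lower without overlap. The mitochondrial median was -0.43, against 0.06 for the nuclear members. Without the deep E6.5 libraries *mt-Co1* and *mt-Co2* passed (log2 fold changes -0.34 and -0.36, adjusted p = 0.0276 and 0.0456), where 0.66% of all genes were lower.

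The difference between the genotypes in this step was tested by an interaction of genotype and stage over the 29 epiblasts of E6.5 and E7.5. No member passed among 102 tested by edgeR, where 0.556% of all genes did, and 3 had an unadjusted p under 0.05 (14.1% of all genes): *Cox7a2l* (-0.54, SE 0.20, adjusted p = 0.168), *Cox7c* (0.47, SE 0.17, adjusted p = 0.17) and *Ndufs4* (0.56, SE 0.25, adjusted p = 0.3). DESeq2 called 0, where 1.16% of all genes were higher and 2.53% lower. With voom and sample quality weights 3 passed, all higher (7.51% of all genes). Without E7.5 WT epiblast 3, *Cox7c* passed (0.54, adjusted p = 0.0439, where 2.05% of all genes were higher), its level having gone from 50.6, 63.6 and 77.9 CPM in E6.5 null to 73.2, 61.5 and 62.6 in E7.5 null epiblasts while it fell in WT. A difference between genotypes in the fall of the mitochondrial genes was thus not detected. The 95% intervals of their 13 interaction values all lay within a 2-fold change, but that bound is wider than the fall. The median log2 fold changes were only -0.33 in WT and -0.43 in null, and the median SE of the interaction values was 0.199. The intervals therefore do not show that the falls were alike.

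**Figure D4:**
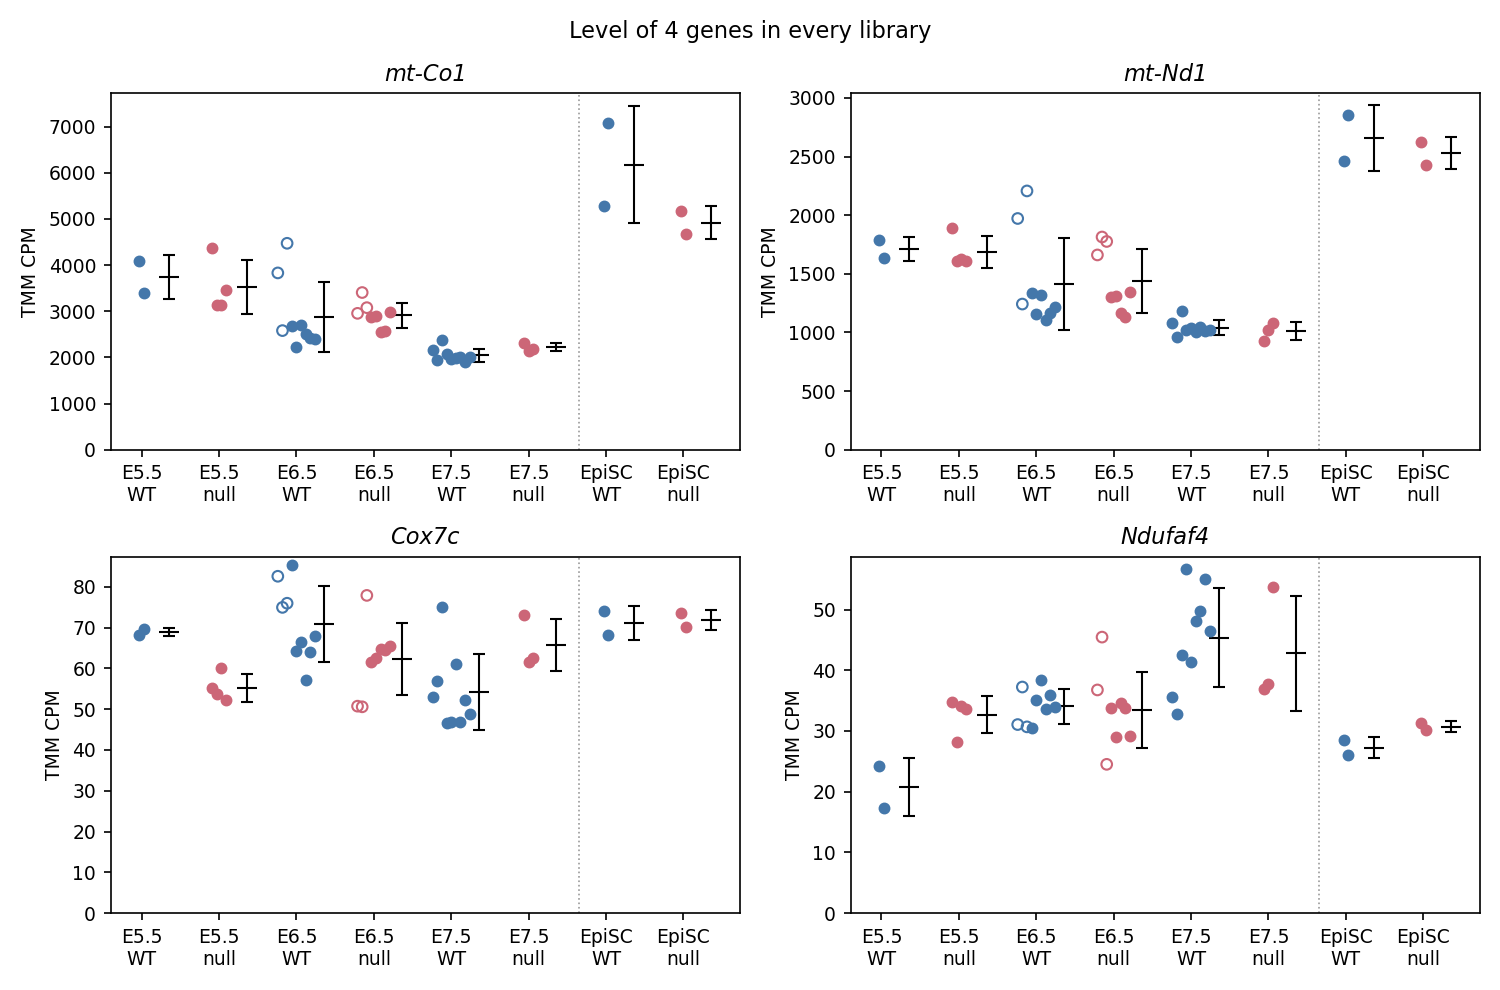
TMM-scaled CPM of *mt-Co1*, *mt-Nd1*, *Cox7c* and *Ndufaf4* in every library by stage and genotype, with mean ± SD. *mt-Co1* lies between 1898 and 2377 CPM in all E7.5 epiblasts and at 3130 or higher in all E5.5 epiblasts, and *Cox7c* in E7.5 WT epiblast 3, at 75.1, stands above the other 8 WT epiblasts of its stage.

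Between null and WT epiblasts of 1 stage, no member passed at any stage. At E5.5, edgeR called 0 of 100 members and 0% of all genes, and DESeq2 and voom also called 0 members. Of all genes, DESeq2 called 0.0482% higher and 0.0321% lower, and voom 0%. At an unadjusted p under 0.05 there were 3 members (2.5% of all genes). The edgeR count of members was also 0 without null epiblast 1. *Ndufa8* was at 22.4 and 23.4 CPM in WT and at 34.3, 34.1, 35.4 and 35.8 in null epiblasts (log2 fold change 0.60, SE 0.19, adjusted p = 0.999). *Ndufaf4* was at 24.2 and 17.4 CPM in WT and at 34.8, 28.2, 34.1 and 33.6 in null (0.65, SE 0.24, adjusted p = 0.999). *Ndufs4*, an accessory subunit whose loss causes Leigh-like disease in mice, was at 49.7 and 48.0 CPM in WT and at 28.3, 25.7, 31.1 and 41.2 in null (-0.63, SE 0.24, adjusted p = 0.999). None of the 3 overlapped between genotypes, as was so for 16 of the 100 members and 11.7% of all genes.

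At E6.5, edgeR called 0 of 101 members and 0% of all genes, and DESeq2 and voom called none of the members either. Of all genes, DESeq2 called 0.14% higher and 0.129% lower, and voom 0.679% and 0.316%. At an unadjusted p under 0.05 there were 7 members, 2 higher and 5 lower (8.27% of all genes, 4.76% higher and 3.51% lower). *Ndufb9*, an accessory subunit of complex I, was at 27.6, 40.9 and 46.5 CPM in WT and at 18.9, 32.9 and 35.3 in null epiblasts (log2 fold change -0.34, SE 0.14, adjusted p = 0.495). *Sdhb*, the iron-sulfur subunit of complex II, was at 37.9, 47.1 and 63.0 CPM in WT and at 33.0, 39.4 and 49.7 in null (-0.24, SE 0.11, adjusted p = 0.579). *Uqcrc2* was at 41.8, 53.6 and 57.9 CPM in WT and at 49.2, 59.1 and 73.5 in null (0.23, SE 0.09, adjusted p = 0.51), and *Ndufaf6* had 0.48 (SE 0.23, adjusted p = 0.596). All of these ranges overlapped. The mitochondrial median was 0.07 and the nuclear one -0.08. Within the 11 libraries under 40000000 counts the mitochondrial median was 0.16, and within the 6 deep ones it was -0.16, so its sign turned with depth.

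At E7.5, edgeR called 0 of 101 members, where it called 2.11% of all genes (0.767% higher and 1.35% lower). DESeq2 called 0, where 2.61% of all genes were higher and 6.71% lower. With voom 8 passed (7 higher and 1 lower, where 11.0% and 6.77% of all genes passed). At an unadjusted p under 0.05 there were 5 higher and 5 lower (19.7% of all genes, 8.81% higher and 10.9% lower). *Uqcr10*, a small subunit of complex III, was at 19.4, 23.6 and 25.6 CPM in WT and at 27.4, 25.4 and 32.5 in null epiblasts (log2 fold change 0.33, SE 0.12, adjusted p = 0.146). *Ndufab1*, the mitochondrial acyl carrier protein, was at 63.2, 80.0 and 100.4 CPM in WT and at 94.8, 93.4 and 100.4 in null (0.27, SE 0.11, adjusted p = 0.182). *Cox7a2l*, which helps to join complexes III and IV, was at 22.1, 29.9 and 33.9 CPM in WT and at 23.9, 24.1 and 17.9 in null (-0.40, SE 0.15, adjusted p = 0.14), and its copy *Gm6969* took a median of 32.0% of their summed counts. *Ndufb11*, an X-linked subunit, was at 20.7, 32.5 and 43.3 CPM in WT and at 21.9, 21.6 and 22.2 in null (-0.48, SE 0.20, adjusted p = 0.193). Null values sat at one end of the WT range in these 4 genes, but each overlapped it. Without E7.5 WT epiblast 3, 3 members were higher in null (where 7.06% of all genes were): *Cox7c* (log2 fold change 0.38, adjusted p = 0.0193), *Ndufab1* (0.32, adjusted p = 0.03) and *mt-Co1* (0.17, adjusted p = 0.00976). That library held 5803 CPM of epiblast markers, against 1110 to 3187 in the other WT and 4322 to 5995 in the null epiblasts of E7.5, and the visceral endoderm markers *Afp* and *Trf* were lower in null than in WT past the threshold. The part of either marker set in these values was not tested.

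The intervals say how large a difference could have been missed. The 95% interval of null against WT lay within a 2-fold change in either direction for 75 of 100 members at E5.5 (29.2% of all genes), 90 of 101 at E6.5 (50.9%) and 94 of 101 at E7.5 (45.7%). All 13 mitochondrial genes were among them at each stage. The mitochondrial medians were -0.03 at E5.5, 0.07 at E6.5 and -0.02 at E7.5, and the nuclear ones 0.04, -0.08 and 0.01.

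In EpiSCs, where *Cox7b2* and *Cox8c* were not tested, edgeR called 0 of 103 members between null and WT lines, where it called 0.13% of all genes. DESeq2 and voom called none of the members either. Of all genes, DESeq2 called 0.911% higher and 1.63% lower, and voom 0.053% and 0.0868%. *Atp5o*, the subunit of the ATP synthase stalk that confers oligomycin sensitivity, was the 1 member with an unadjusted p under 0.05 (9.09% of all genes, 3.61% higher). It was at 108.8 and 101.5 CPM in WT lines 8 and 13 and at 123.0 and 121.9 in null lines 2 and 6 (log2 fold change 0.22, SE 0.07, adjusted p = 0.408). The groups did not overlap for 32 of the 103 members, 16 in each direction, where they did not for 39.3% of all genes. *mt-Co1* was at 5287 and 7071 CPM in WT and 5168 and 4675 in null lines, and the mitochondrial share at 1.90% and 2.45% in WT and 1.98% and 1.83% in null. WT line 13 was the highest of the 4 in both. The mitochondrial median of -0.17 became 0.00 without that line and -0.30 without WT line 8. The 95% interval lay within a 2-fold change for 96 of the 103 members (57.7% of all genes), all 13 mitochondrial genes included.

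Leaving out null line 2 gave 1 member past the threshold, lower in the remaining null line: *Ndufa12* (log2 fold change -1.83, adjusted p = 0.0115), where 0.0727% of all genes were lower. This complex I subunit was at 41.2 and 35.3 CPM in WT lines 8 and 13 and at 44.8 and 10.7 in null lines 2 and 6. It has an annotated processed pseudogene of 99.55% identity, *Gm15920*, which was at 22.9, 28.1, 22.8 and 60.2 CPM in the same 4 lines. Their sums were 64.0, 63.4, 67.6 and 70.9 CPM, so the low value of null line 6 was matched by counts on the copy, which took 85.0% of the sum there and 33.7% to 44.2% in the other lines. Genes and their copies were set side by side after the values were seen. *Ndufs5* was at 0.588 CPM in E6.5 null epiblast 3, where its copy *BC002163* took 96.8% of their counts, and their sum was 18.2 CPM. *Ndufb4*, another complex I subunit, was at 0 in E6.5 null epiblasts 2 and 3, and its copy *Ndufb4c* did not make up for it: the sums were 5.15 and 3.84 CPM there and 20.91 to 26.04 in the other E6.5 null epiblasts. In all, 11 nuclear members had copies with over 10% of their counts: *Atp5g1*, *Atp5g2*, *Atp5h*, *Atp5l*, *Cox7a2l*, *Ndufa12*, *Ndufab1*, *Ndufb4*, *Ndufs3*, *Ndufs5* and *Uqcrb*.

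The tables differed in the ribosomal RNA that was left. Mitochondrial ribosomal RNA took 3.54% to 7.63% of counts in epiblast libraries and at most 0.00219% in EpiSC libraries, so shares across the tables have different denominators. Without the 3 genes that held over 1% of any library, none of them a member, mitochondrial messenger RNA took 1.13% ± 0.04 (SD, n = 9) of counts in E7.5 WT epiblasts and 2.21% and 2.83% in the WT EpiSC lines, and the nuclear members 0.612% ± 0.017 (SD, n = 9) and 0.554% and 0.510%. *Atp5a1* was at 620.4 to 804.2 CPM in epiblasts and 318.1 to 403.5 in EpiSCs. *Atp5b*, its partner in the catalytic head, was at 523.1 to 743.9 and 706.2 to 822.3. These levels were scaled within each table.

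Of the 7 assembly factors, *Ndufaf4* had the highest level per kilobase over WT epiblasts, though not at E5.5, where *Ndufaf1* stood at 8.98 and *Ndufaf4* at 5.33, nor in WT EpiSCs, where *Ndufaf6* stood at 10.2 and *Ndufaf4* at 6.98. *Ndufaf1*, which acts early in building the membrane arm, had group means between 9.76 and 13.5 CPM in epiblasts, and *Ndufaf7*, a methyltransferase, between 12.7 and 15.6. *Ndufaf2* lay between 9.69 and 18.1, *Ndufaf3* between 5.497 and 7.385 and *Ndufaf5* between 4.10 and 8.89. *Ndufaf3* and *Ndufaf7* were each listed at 0 in 1 E6.5 null epiblast. Only *Ndufaf4* and *Ndufaf6* passed in any comparison within edgeR's main test, both higher at later WT stages, and neither differed past the threshold between genotypes. In sum the 7 genes took 0.00779%, 0.00942% and 0.0111% of counts in WT epiblasts of the 3 stages and 0.00897%, 0.00984% and 0.0111% in null epiblasts.

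Several subunits of complex IV exist in a widespread form and a form restricted to muscle, lung, testis or other tissues (the plot of isoforms). Per kilobase, over WT epiblasts, *Cox4i1* was at 62.3 CPM and *Cox4i2* at 1.54, *Cox6b1* at 42.2 and *Cox6b2* at 1.40, *Cox7a2* at 28.6 and *Cox7a1* at 1.68, and *Cox7b* at 65.1 and *Cox7b2* at 0.0731, so the widespread form was the higher of each pair. *Cox4i1* was at 87.1 to 95.1 CPM in the 3 E7.5 null epiblasts and *Cox4i2*, the form known from lung and hypoxic cells, at 0.413 to 0.726. *Cox4i2* was at 0 and 0.0345 CPM in the WT and at 0 in all 4 null epiblasts of E5.5, and WT epiblasts had 0, 0.514 and 3.28 CPM (lowest, median, highest) at E6.5 and 0.259, 1.74 and 4.11 at E7.5. *Cox6a2*, of heart and muscle, was at 0 in 34 of 35 epiblasts (0.571 CPM in 1 E6.5 WT), with *Cox6a1* at 21.5 to 72.6 CPM. *Cox7a1*, the muscle partner of *Cox7a2*, and *Cox7b2*, *Cox8b* and *Cox8c*, the partners of *Cox7b* and *Cox8a*, stayed low. *Cox7b2* reached at most 2.17 CPM, *Cox8b* 1.06 and *Cox8c* 0.233, and a library at 0 can hide up to 3 counts, which is 0.038 to 0.131 CPM in the epiblast libraries. *Ndufa4l2*, the hypoxia-linked relative of *Ndufa4*, was at 0.117, 1.93 and 16.4 CPM in E6.5 WT, highest in the 3 deep libraries (16.4, 6.03 and 4.80), and at 0, 0.515 and 2.26 in E6.5 null epiblasts, with *Ndufa4* at 16.1 to 39.1 CPM over all epiblasts. Per kilobase the means of E6.5 WT were 3.55 for *Ndufa4l2* and 16.4 for *Ndufa4*.

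*Cox6b2* was low in epiblasts and abundant in EpiSCs. This form of the subunit, known from testis, was at 0 to 4.28 CPM in the 35 epiblasts, where *Cox6b1* was at 12.8 to 44.6. In EpiSCs it was at 55.3 and 64.6 CPM in WT lines 8 and 13 and at 54.0 and 51.5 in null lines 2 and 6, with *Cox6b1* at 52.1, 51.5, 66.1 and 52.0. All 4 EpiSC lines were thus above all 35 epiblasts, and per kilobase the means were 54.1 for *Cox6b2* and 73.2 for *Cox6b1* in WT lines and 47.6 and 83.5 in null lines. These means used the exon union, of 1108 bases for *Cox6b2* and 708 for *Cox6b1*, where the longest transcripts have 585 and 618. The distance between these genes depends on the length used, and in WT lines so does their order. *Cox8a* was at 143.4 to 155.0 CPM in EpiSCs and 31.6 to 99.2 in epiblasts, and *Ndufa4* at 73.5 to 77.3 and 16.1 to 39.1. The tables were made with different kits and scaled apart, so these are values side by side and no test was made.

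**Figure D5:**
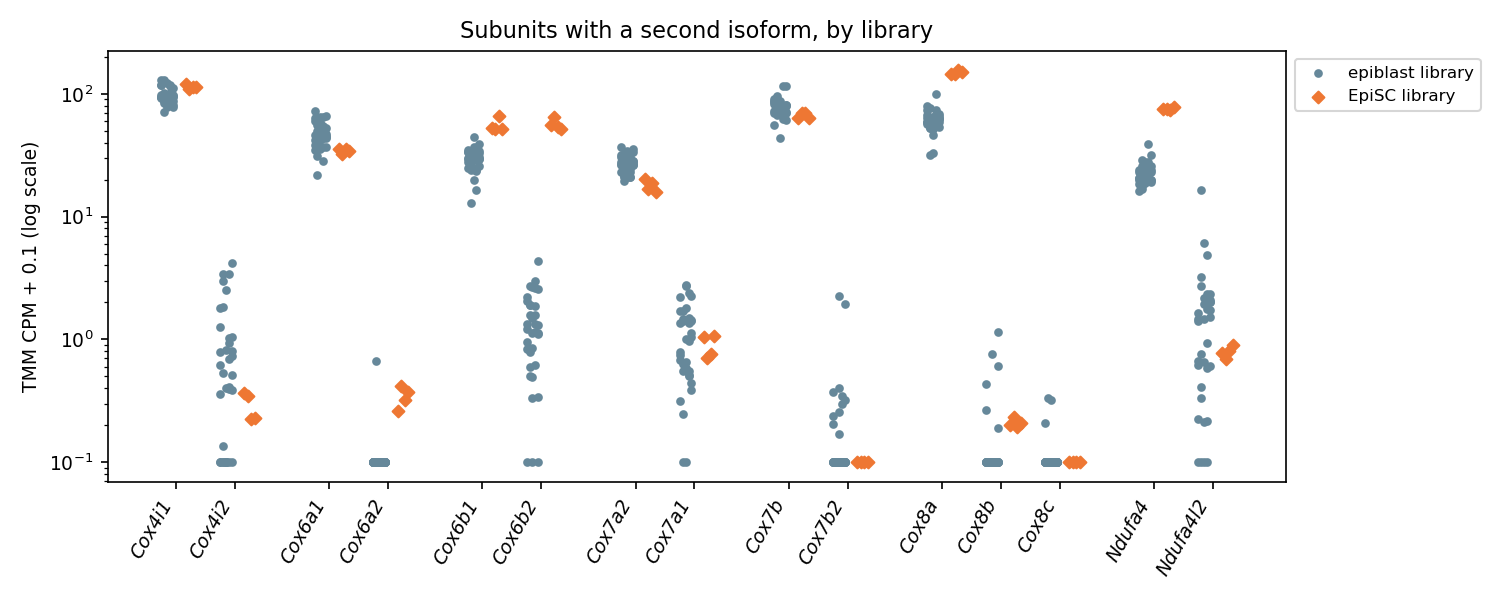
TMM-scaled CPM plus 0.1, on a log axis, of subunits with an alternative isoform, in 35 epiblast libraries (dots) and 4 EpiSC libraries (diamonds); libraries at 0 are drawn at 0.1. *Cox6b2* lies at 0 to 4.28 CPM in epiblasts and at 51.5 to 64.6 in EpiSCs, with *Cox6b1* at 12.8 to 44.6 and 51.5 to 66.1.

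The rest of the pathway was read from lists of other genes, to be set beside the 12.7% of all genes that rose and the 12.3% that fell from E6.5 to E7.5 in WT epiblasts. At that step, 3 of 13 genes of the tricarboxylic acid cycle fell, *Idh3a* (log2 fold change -0.42), *Mdh2* (-0.37) and *Cs*, the citrate synthase (-0.32), and *Sucla2* rose (0.36). Of 13 genes for the upkeep and transcription of mitochondrial DNA, *Peo1* (the helicase Twinkle), *Ssbp1* and *Lrpprc*, which stabilizes mitochondrial messenger RNA, fell (-0.57, -0.32 and -0.26), and *Polg*, the mitochondrial DNA polymerase, rose (1.23). Of 5 tested regulators of biogenesis, *Pprc1* and *Gabpa* fell (-0.54 and -0.30). Of 28 carriers and assembly factors outside the symbol pattern, *Cyc1*, the cytochrome c1 of complex III, fell (-0.33) and *Atpif1*, the inhibitor of the ATP synthase, rose (0.21). The mitochondrial ribosomal RNA *mt-Rnr2* fell (-0.15).

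From E5.5 to E6.5 in WT epiblasts, where 5.15% of all genes rose and 4.09% fell, *Peo1* and *Ssbp1* rose (log2 fold changes 0.76 and 0.56), *Polg* fell (-1.78), *Fh1*, the fumarase, rose (0.59), and *mt-Rnr1* and *mt-Rnr2* fell (-0.50 and -0.35), while no regulator of biogenesis and no carrier or assembly factor passed. The call of *Ssbp1* was lost in 16 of 21 alternatives and that of *Fh1* in 8 of 21. In null epiblasts, where 2.46% of all genes rose and 1.31% fell, *Ssbp1* rose (0.70) at this step and *Polg* and *Ogdh* fell (-1.27 and -0.63), the call of *Polg* being lost in 9 of 23 alternatives. Between genotypes 2 genes of these lists passed, both higher in null epiblasts at E7.5, where 2.11% of all genes passed and 0.767% were higher. *Idh3a*, a subunit of isocitrate dehydrogenase, was at 73.6, 75.6 and 102.8 CPM in WT and at 107.6, 100.5 and 107.8 in null epiblasts (log2 fold change 0.42, SE 0.10, adjusted p = 0.0435). *Peo1* was at 44.2, 48.1 and 69.9 CPM in WT and at 77.0, 69.3 and 77.4 in null (0.54, SE 0.13, adjusted p = 0.0446). In both genes WT epiblast 3 was the highest of its group and the only WT value that reached the null ones, and the calls were lost in 14 and 15 of 21 alternatives. Both genes fell from E6.5 to E7.5 in WT epiblasts, and the part of the developmental delay in these values was not tested. The step from E6.5 to E7.5 differed between genotypes for *Polg* (interaction -2.36, SE 0.55, adjusted p = 0.0456, lost in 25 of 41 alternatives), which was at 128.9 to 293.1 CPM in 8 E7.5 WT epiblasts, at 78.0 in WT epiblast 3 and at 50.7 to 78.9 in null epiblasts of that stage. Visceral endoderm markers were at 684.9 or more CPM in those 8, at 370.8 in WT epiblast 3 and at 244 or less in the null epiblasts, and their part in the values of *Polg* was not tested. No gene of these lists passed between genotypes at E5.5, at E6.5 or in EpiSCs, or from E6.5 to E7.5 in null epiblasts.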

How the data were processed

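RNA of 35 single epiblasts and 4 EpiSC lines was sequenced. The authors trimmed reads with Trim Galore, aligned them to GRCm38/mm10 with HISAT2 v2.2.1 and deposited raw counts per gene from StringTie v2.1.4 in 2 tables; the annotation version and the strand setting are not given in the sources used here. Where strand was not used, reads of overlapping genes on opposite strands, such as *mt-Nd6* and its neighbours, cannot be told apart.

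Members were taken by symbol from both tables, which list the same genes. Counts were analysed with edgeR 4.0.16 in R 4.3.3. The libraries of each comparison were filtered with filterByExpr (minimum count 10, minimum total 15), scaled by TMM and given robust quasi-likelihood fits. Two-sided p-values were adjusted by Benjamini-Hochberg across every gene in the fit, with a threshold of 0.05. CPM values are TMM-scaled, once over the 35 epiblast libraries and once over the 4 EpiSC libraries. Groups were called non-overlapping on log2 CPM with a prior count of 0.5. Levels between genes were divided by exon-union length (GENCODE vM21, matched by gene ID: 47224 of 47643 genes and all 105 members), with the longest transcript as an alternative. Near-identical copies were found with blastn 2.17.0. DESeq2 1.42.0, voom with sample quality weights (limma 3.58.1), other scalings and filters, and leaving out libraries were alternatives. The scripts were tested on simulated data. Each epiblast library is 1 embryo, but litters are not given. Genes are named by rule: all mitochondrial members, the 2 highest and the lowest nuclear member of each complex, members past the threshold (up to 5 a direction, otherwise the 2 with the smallest p), isoform pairs and assembly factors; further names were chosen after values were seen. Values of some genes that the rules name are not reported here. The members and lists were chosen with earlier results of these data known.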

Additional observations from a re-analysis of the deposited data

Results flagged for a closer look

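Dixon's criterion was applied 80 times, to shares and single genes in groups of 4 or more libraries, and 8 times a library lay far from the others. The same libraries enter many of these tests, and several flags fall on 1 library. The 8 therefore cannot be set against the 1 in 20 of independent tests. E5.5 null epiblast 1, whose *Pou5f1* was near 0, had the highest mitochondrial share of its group (1.69% of counts) and the highest *mt-Nd1* (1887 CPM) and *mt-Nd2* (882.8 CPM). E6.5 WT epiblast 1 had the lowest share on the nuclear members (0.454%). E6.5 null epiblast 3 had the highest *mt-Nd3* (61.2 CPM) and *mt-Nd4l* (300.6 CPM) of its group, and E7.5 WT epiblast 9 the highest *mt-Nd3* (40.6 CPM); both genes share reads with copies on chromosome 1. *Cox7c* was highest in E7.5 WT epiblast 3 (75.1 CPM).

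Outside the members, the chromosome 1 copies of mitochondrial genes took 0.236% of counts in E6.5 WT epiblasts (n = 9), above the limit that a count of 0 allows.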

How the results depend on the processing

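No change past the threshold turned its direction. Medians near 0 could: the mitochondrial one of E6.5 null against WT was 0.16 in libraries under 40000000 counts and -0.16 in those over it, and that of EpiSCs is given below. Of the counts of members past the threshold, 173 stayed within 1.5 times the main value under an alternative and 42 did not. Counts that were 0 both times are among the 173. Of the medians, 425 moved by less than the spread and 5 by more. With the longest transcript as length, 53 levels per kilobase moved by more than their SD and 52 by less. Without the genes over 1% in the denominator, 14 group shares moved by more than their SD and 2 by less. Null against WT at E7.5 gave 8 members by voom and 0 to 3 with single libraries left out; at E5.5 the nuclear median ran from 0.0178 to 0.1043 when libraries were left out. In EpiSCs leaving out a line gave 0 to 1 member and a mitochondrial median from -0.30 to 0.00 (0.0023 without WT line 13). The shares of all genes called rose with several of the counts below: DESeq2 and voom called 8.33% and 5.51% higher and 7.05% and 11.0% lower from E5.5 to E6.5 in WT, 14.9% and 21.7% higher and 13.8% and 19.6% lower from E6.5 to E7.5 in WT, and 6.06% and 7.88% higher and 3.62% and 11.4% lower from E5.5 to E6.5 in null. From E5.5 to E6.5 in WT, where the main count was 1, DESeq2 and voom gave 8 each, a mean count of at least 50 gave 7, the scaling without members and abundant genes 3, the RLE scaling 2, fits without the robust option 2, adding copies to their genes 3, leaving out single libraries 0 to 15, and leaving out the E6.5 libraries over 40000000 counts 29. From E6.5 to E7.5 in WT (9 members), DESeq2 gave 15, voom 24, single libraries left out 7 to 14, no libraries that stand apart 16 and no deep E6.5 libraries 14. From E5.5 to E6.5 in null (2), DESeq2 gave 8, voom 22, no filter on low counts 1, fits without the robust option 1, single libraries left out 1 to 8 and no deep E6.5 libraries 18. From E6.5 to E7.5 in null (0), DESeq2 gave 3, voom 10 and no deep E6.5 libraries 2. The interaction (0) gave 3 by voom, 0 to 1 with single libraries left out and 2 without the libraries that stand apart. In the last of these 3.34% of all genes were higher and 3.53% lower. For the other scalings and filters, the robust option and added copies, the share of all genes called is not given here. Those counts are therefore not a result about the members. Among single genes, *Uqcrb* from E6.5 to E7.5 in WT lost its call in 12 of 29 alternatives, *Ndufaf6* in 5 of 29 and *Ndufa8* from E5.5 to E6.5 in null in 12 of 23. The cause was not tested. Adding copies and leaving out the deep E6.5 libraries were chosen after seeing the data.

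Same-numbered libraries did not deviate together throughout (correlations from -0.392 to 0.546), so the numbers were not taken as pairs. With the replicate number as a block, 0 members passed from E5.5 to E6.5 in WT and in null. Only replicates 1 and 2 in WT and 1 to 4 in null occur at both of these stages. Such fits leave little from which to estimate the spread, so these counts of 0 say little. The nuclear medians with this block were -0.21 from E5.5 to E6.5 in WT and 0.22 from E6.5 to E7.5 in null. For EpiSCs, no paired analysis was possible because the lines share no number. Depth limits the rare isoforms, for which 3 counts came to 0.038 to 0.131 CPM in epiblasts, and 2 WT epiblasts at E5.5 limit every comparison with that group.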
